A study of Homo sapiens with 9 samples.

Results

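Long noncoding RNAs named as intergenic (LINC followed by a number) or as antisense (ending in -AS1, -AS2 or -AS3) were followed over 24 h of treatment in MV4-11, a long-established line of human leukaemia cells (acute myeloid, monocytic). A row of the deposited expression table was a member when its symbol had 1 of these forms and its mean over the 9 libraries was at least 5 normalised counts, and EPB41L4A-AS1 was left out. This kept 402 of 26929 genes, 107 LINC and 295 antisense, out of 1917 rows with such a name, of which 902 had no read in any library. The members were thus chosen by their name and their mean level, so levels are given as a description. The members just inside the threshold were LINC00959 at 5.01, MID1IP1-AS1 at 5.11 and PRKX-AS1 at 5.12, and the genes just outside it were LINC00449 at 4.99, LINC00618 at 4.96 and LINC00696 at 4.95.

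Cells received the vehicle DMSO, the compound JPX-0700 or the compound JPX-0750, with 3 libraries per group, and the series title describes the compounds as degraders of both STAT3 and STAT5. All 3 groups were MV4-11 cells at the same time point, a dose is not given in the labels, and the line carries no label for a genetic change. No label says that the replicates came from separate cultures, so the p-values rest on the spread among these libraries, which may be technical. Libraries were made with a kit that reads the 3′ end of polyadenylated RNA, so an expression value counts 3′ reads and is not divided by transcript length. The sources used here do not give the strand that was counted, and where a member and a coding gene share exonic sequence on opposite strands their reads cannot be told apart. A lower level in each cell and fewer cells with the transcript cannot be told apart in bulk RNA either.

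Antisense RNAs are transcribed from the strand opposite to a named gene. Some lie across its exons or introns, and others start close to its promoter and run away from it, as divergent transcripts that share a CpG-rich start region with the coding gene. Intergenic RNAs have their own promoters. Many RNAs of both kinds are spliced poorly, stay in the nucleus and are degraded quickly, and their steady-state level is low, while a few act in cis or in the cytoplasm.

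The start regions of 3 members that passed the test with both compounds are shown because they stand for 3 kinds of start. Windows of 250 bases before to 50 bases after the start came from RefSeq (GRCh38.p14), and 304 members matched one, among them 24 of the 30 members that passed the test with either compound. LINC01021, also named PURPL, is an intergenic RNA known as a p53-induced transcript, and its window (chr5:27472042-27472341, plus strand) held 1 p53 response element, in capitals. The window of GABPB1-AS1 (chr15:50353924-50354223, plus strand) held TGANTCA, the AP-1 element, and TTCNNNGAA, the core of STAT sites, in capitals. This window follows the RefSeq start of GABPB1-AS1. The GENCODE annotation places the start further downstream, at 50354959 on the same strand, so the window does not contain that start. The stretch for DNAJC3-AS1, now named DNAJC3-DT, runs from 50 bases inside the RNA up to the base before the start of DNAJC3 on the other strand (chr13:95676876-95677138, minus strand), with each CpG in capitals.
LINC01021: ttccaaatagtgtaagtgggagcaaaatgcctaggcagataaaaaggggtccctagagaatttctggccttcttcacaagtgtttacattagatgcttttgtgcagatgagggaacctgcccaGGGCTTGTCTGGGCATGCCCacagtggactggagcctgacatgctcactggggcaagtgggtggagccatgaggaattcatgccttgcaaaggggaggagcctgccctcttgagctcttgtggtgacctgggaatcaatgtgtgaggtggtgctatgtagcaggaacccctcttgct
GABPB1-AS1: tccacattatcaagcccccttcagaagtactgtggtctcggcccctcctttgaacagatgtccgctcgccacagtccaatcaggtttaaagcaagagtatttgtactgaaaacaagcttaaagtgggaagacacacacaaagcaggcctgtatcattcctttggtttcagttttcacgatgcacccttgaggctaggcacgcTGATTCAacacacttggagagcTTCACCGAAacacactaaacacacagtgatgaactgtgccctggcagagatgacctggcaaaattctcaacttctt
DNAJC3-AS1: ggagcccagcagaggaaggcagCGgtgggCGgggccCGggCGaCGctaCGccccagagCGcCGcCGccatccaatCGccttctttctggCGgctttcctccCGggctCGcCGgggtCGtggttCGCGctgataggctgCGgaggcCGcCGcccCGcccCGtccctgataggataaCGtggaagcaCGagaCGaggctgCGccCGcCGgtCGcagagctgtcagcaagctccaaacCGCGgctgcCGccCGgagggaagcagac
The p53 element, searched after the sequences had been read, was 2 abutting copies of the consensus decamer, and it occurred in 0.0171% of the 35116 windows in RefSeq and in 1 of the 304 members, LINC01021. TGANTCA, searched on both strands, stood in 7.71% of all windows and in 1 of the 24 called members, and TTCNNNGAA in 7.66% of all windows and in 3 of the 24 (LINC00324, TTC28-AS1 and GABPB1-AS1). Of the heat shock units, GAANNTTC stood in 6.77% of all windows and in 0 of the 24, and TTCNNGAA in 7.74% and in 2 of the 24 (INTS6-AS1 and ZRANB2-AS2). TGATGCAA, bound by ATF4 with C/EBP proteins, stood in 0.866% of all windows and in 0 of the 304. The median CpG count per window was 24 for the members and 25.5 for the called members, against 14 for all windows, and the 3 stretches shown held 0, 6 and 33. A match describes the letters of the window and shows no binding.

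The libraries held 2701317 to 6305586 reads on genes in DMSO, 739418 to 1852375 under JPX-0700 and 726043 to 1941860 under JPX-0750, so 1 read was worth 0.383 to 0.898 normalised counts in DMSO and 1.67 to 4.61 with a compound. Of the 402 members, 157 were detected in DMSO replicate 1, 187 in replicate 3 of JPX-0700 and 233 in replicate 3 of JPX-0750, while the other libraries detected 314 to 378. The marker list for MV4-11 had 9 of 10 genes at a DMSO mean of at least 5, with HOXA9 at 0.538, and its summed level was 6006 to 9697 in DMSO, 2970.3 to 5213 under JPX-0700 and 2444 to 4282 under JPX-0750. The T and NK, B and plasma, erythroid and megakaryocyte, and epithelial and fibroblast lists had 1 of 6, 1 of 5, 0 of 6 and 1 of 7 genes at that level, and CD3D, CD3E, KLRD1, MS4A1, JCHAIN, HBB, EPCAM and COL1A2 were at 0 in every DMSO library, with no summed level of these 4 lists above 129.9 in any library. COL1A1 had means of 0, 13.3 and 43.3 normalised counts over the 3 groups, CD3D 0, 16.7 and 0, and GNLY 0.819, 0 and 16.7, and their part in the results was not tested.

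Together the members took a larger share of the reads in each treated library than in any DMSO library. The share was 0.356%, 0.298% and 0.311% in the 3 DMSO libraries, 0.694%, 0.722% and 0.751% under JPX-0700, and 0.684%, 0.638% and 0.587% under JPX-0750. The group means were 0.322% ± 0.0302 (SD, n = 3), 0.722% ± 0.0286 and 0.636% ± 0.0483. Both kinds took larger shares, going from 0.0747% ± 0.00223 to 0.180% ± 0.0264 and 0.157% ± 0.0163 for LINC, and from 0.247% ± 0.0280 to 0.542% ± 0.0185 and 0.479% ± 0.0583 for antisense. Over all 1917 rows with such a name, whatever their level, the shares were 0.330%, 0.757% and 0.671%. In the same libraries structured noncoding RNAs (small nuclear and nucleolar RNAs and the like) went from 0.0960% to 7.29% and 9.19% of all gene reads. MALAT1 went from 0.387% to 6.03% and 6.15% of them, and the tested coding genes from 98.0% to 81.3% and 78.5%. The part of these shifts in the members' share was not tested.

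**Figure D1:**
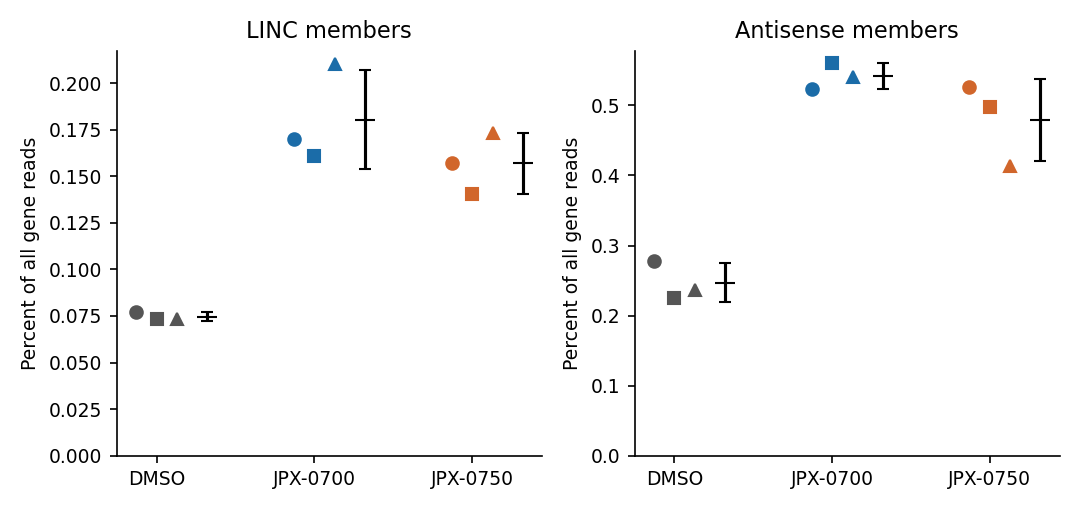
Percent of all gene reads on LINC members (left) and antisense members (right) in each library, with circles, squares and triangles for replicates 1, 2 and 3 and a black bar for the mean ± SD (n = 3). Every JPX-0700 and JPX-0750 library lies above every DMSO library in both panels.

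Single members mostly moved upward, and few passed the test. The median log2 fold change (on the scale of log2 of normalised count + 1) was 1.82 over the 402 members under JPX-0700 and 1.88 under JPX-0750, against 0.14 and 0.26 over the 12301 genes tested. Values above 0 were found for 81.6% and 86.8% of members, and for 53.4% and 57.3% of all genes. Of the 402, 218 had a DMSO mean under 5 and were kept only through their treated libraries, so their treated mean had to be higher and their direction is no result. The 184 members with a DMSO mean of at least 5 had medians of 0.55 and 0.75, against -0.21 and -0.02 for all 10175 genes at that level. Another 129 genes annotated as long noncoding RNAs under other names had medians of 1.67 and 1.99, and 10924 coding genes -0.03 and 0.12. Neither set was limited by its DMSO mean, so these medians stand beside the 1.82 and 1.88 of all 402 members. Genes kept only through treated libraries were not taken out of them. When libraries were scaled by their totals, the all-gene medians shifted to -0.50 and -0.23 and those of the members to 1.48 and 1.55.

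With JPX-0700, 28 members (6.97%) rose and 0 fell by limma at an adjusted p under 0.05, where 5.28% of all genes tested rose and 0.496% fell. With JPX-0750, 17 members (4.23%) rose and 0 fell, where 3.9% of all genes rose and 0.0732% fell. The shares over all 402 are near the background, and they differ with the level. At a DMSO mean of at least 5, 19 of 184 members (10.3%) rose under JPX-0700 and 11 (5.98%) under JPX-0750, where 4.20% and 2.63% of the 10175 genes at that level did. At a mean over the 9 libraries of at least 20, 28 of 197 (14.2%) and 17 (8.63%) rose, where 6.69% and 4.93% of 9679 genes did. That mean includes the treated libraries, so this cut also keeps members for being high there. Of these calls, 9 and 6 had a DMSO mean under 5. No test of these differences was made. By separation of the libraries, 89 members (22.1%) lay above all DMSO libraries under JPX-0700 and 111 (27.6%) under JPX-0750, where 16.5% and 19.7% of all genes did, and 5 and 4 lay below all of them, where 10.3% and 9.18% of all genes did. These counts include the 218 members with a DMSO mean under 5, whose selection favours lying above DMSO, so they are a description. The calls were 9 LINC and 19 antisense members under JPX-0700, and 3 LINC and 14 antisense under JPX-0750. The comparisons share the DMSO libraries, and 15 members passed in both, which is 53.6% of the JPX-0700 calls and 88.2% of the JPX-0750 calls. Without the library with the fewest genes in each group, a setting chosen after seeing the data, 180 (44.8%) and 176 (43.8%) members rose and 0 fell. Over all genes 17.5% and 17.8% rose in this setting, and all 28 and 17 calls remained. Members kept only through their treated libraries are among these too, so the counts are a description. Leaving out 1 library at a time gave 19 to 43 and 9 to 55 members that rose, with 43 and 55 without JPX-0700 replicate 3, 11 under JPX-0750 without DMSO replicate 1, and 9 without JPX-0750 replicate 1 or replicate 2.

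**Figure D2:**
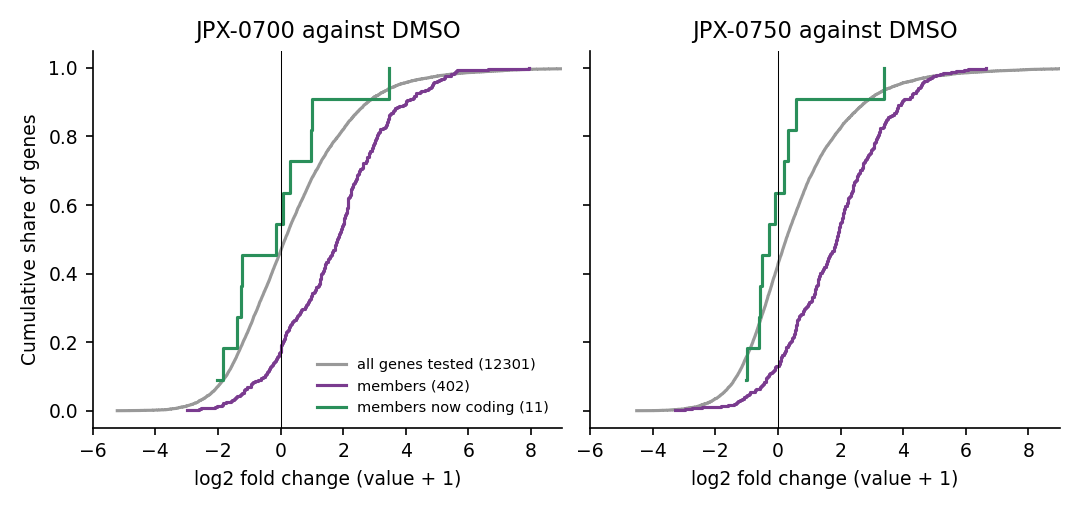
Cumulative share of genes (y) by log2 fold change against DMSO (x) for JPX-0700 (left) and JPX-0750 (right), with all 12301 genes tested in grey, the 402 members in purple and the 11 members now annotated as coding in green. The purple line lies to the right of the grey one over most of its range, with medians of 1.82 and 1.88, and the green line does not, with medians of -0.15 and -0.28.

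Among members that start head to head with a coding gene, DNAJC3-AS1 had the lowest adjusted p under JPX-0700. It starts 214 bases from DNAJC3, which encodes a co-chaperone of the endoplasmic reticulum that inhibits kinases of the translation factor eIF2. DNAJC3-AS1 had 14.4, 14.6 and 19.9 normalised counts in the DMSO libraries, 465, 291 and 1506 under JPX-0700, and 442, 414 and 339.9 under JPX-0750. All 6 treated libraries lay above all DMSO libraries, and JPX-0700 replicate 3 was the highest. The log2 fold changes were 5.11 ± 0.65 (SE, adjusted p = 5.1e-05 by limma) and 4.54 ± 0.65 (adjusted p = 0.000185 by limma), and the JPX-0700 value was 4.43 without JPX-0700 replicate 3.

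FMR1-AS1 starts 134 bases from FMR1, the gene of the RNA-binding protein lost in fragile X syndrome. It had 2 reads over the DMSO libraries (0, 0 and 1.08 normalised counts), and 120, 160 and 1595 normalised counts under JPX-0700 and 92.4, 114 and 192 under JPX-0750. The groups did not overlap, and JPX-0700 replicate 3 stood far above the other libraries. The ratio of reads per scaled depth was 2122 (95% counting interval 585 to 17562) under JPX-0700 and 419 (114 to 3487) under JPX-0750, and the interval covers counting error only. Without JPX-0700 replicate 3, which held most of the 643 reads of its group, the JPX-0700 ratio was 397 (106 to 3340.3). Its mean level passed the filter only through the treated libraries, so its direction was fixed, and its adjusted p of 0.000157 and 0.00114 by limma is a description. FMR1 itself had 48.5, 68.3 and 119.5 normalised counts in DMSO, 184, 190.1 and 61.1 under JPX-0700, and 226, 218 and 112 under JPX-0750, and did not pass.

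KMT2E-AS1 lies over the start of KMT2E, which encodes a chromatin protein of the MLL family, on the other strand (chromosome 7, 105013425 to 105014321, GRCh38). It had 29.6, 13.4 and 9.15 normalised counts in DMSO, 263, 552 and 167 under JPX-0700, and 633, 509 and 182 under JPX-0750. LINC01004 lies 380 bases further on, on the same strand as KMT2E-AS1 (104950315 to 105013044), and had 79.9, 14.95 and 11.3 in DMSO, 539, 350.3 and 331 under JPX-0700, and 459, 350.2 and 416 under JPX-0750. In neither RNA did treated and DMSO libraries overlap. The log2 fold changes of KMT2E-AS1 were 4.14 ± 0.74 and 4.56 ± 0.74 (SE, adjusted p = 0.00150 and 0.000615 by limma), and those of LINC01004 were 3.98 ± 0.70 and 4.02 ± 0.70 (adjusted p = 0.00127 and 0.00131 by limma), or 4.83 and 4.86 without DMSO replicate 1. Of 4 pairs of members whose annotated spans overlap or lie under 1000 bases apart, this was the 1 pair in which both rose. Reads past the end of KMT2E-AS1 and reads of LINC01004 cannot be told apart in the deposited counts.

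LINC00936, now named ATP2B1-AS1, starts 341 bases from ATP2B1, a calcium pump gene of the plasma membrane. It had 16.2, 4.22 and 6.998 normalised counts in DMSO, 392, 190.1 and 314 under JPX-0700, and 205, 168 and 299.9 under JPX-0750, with no overlap. Its log2 fold changes were 5.00 ± 0.76 (SE, adjusted p = 0.000305 by limma) and 4.61 ± 0.76 (adjusted p = 0.000794 by limma). ZNF528-AS1, next to a zinc finger gene, had 0, 19.6 and 26.9 in DMSO, 498, 257 and 489 under JPX-0700, and 472, 277 and 421 under JPX-0750. The treated libraries of ZNF528-AS1 lay far above DMSO, and its only 0 was in DMSO replicate 1, the library that detected the fewest members. Its log2 fold changes of 5.58 ± 0.98 and 5.52 ± 0.98 (SE, adjusted p = 0.00137 and 0.00167 by limma) were 4.05 and 3.99 without that library, 6.24 and 6.18 without DMSO replicate 2, and 6.46 and 6.396 without DMSO replicate 3, all past the test.

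OTUD6B-AS1, divergent from the deubiquitinase gene OTUD6B, had 377, 106 and 239 normalised counts in DMSO, 1184, 1133 and 1695 under JPX-0700, and 1126, 1055 and 666 under JPX-0750. Every treated library was above every DMSO library, by a smaller factor than in the RNAs above. The log2 fold changes were 2.63 ± 0.50 (SE, adjusted p = 0.00271 by limma) and 2.12 ± 0.50 (adjusted p = 0.0185 by limma), and leaving out DMSO replicate 2 (adjusted p = 0.129 by limma), JPX-0750 replicate 1 (0.128) or JPX-0750 replicate 2 (0.106) ended the JPX-0750 call, as did total-sum scaling (0.0922).

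Of the RNAs that lie across a coding gene, GABPB1-AS1 had the lowest adjusted p under JPX-0700, and its partner did not pass the test. GABPB1 encodes the beta subunit of GABP, an ETS-family transcription factor. GABPB1-AS1 spans chromosome 15, 50354959 to 50372202, in the GENCODE annotation. It had 23.3, 43.7 and 65.1 normalised counts in DMSO, 618, 629.8 and 2070.3 under JPX-0700, and 517, 432 and 392 under JPX-0750. The log2 fold changes were 4.48 ± 0.59 (SE, adjusted p = 7.1e-05 by limma) and 3.42 ± 0.59 (adjusted p = 0.00134 by limma). GABPB1 itself had 24.3, 69.4 and 50.6 in DMSO, 41.5, 18.6 and 11.1 under JPX-0700, and 6.85, 22.7 and 21.7 under JPX-0750. Its JPX-0750 libraries were all below its DMSO libraries, at log2 fold changes of -1.06 ± 1.18 and -1.48 ± 1.18 (SE, adjusted p = 0.639 and 0.605 by limma).

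NIFK-AS1, named here after its values were seen, overlaps NIFK, the gene of a nucleolar protein that binds Ki-67, and starts 63 bases from CLASP1. It had 11.7, 19.9 and 28.0 normalised counts in DMSO, 244, 235 and 547 under JPX-0700, and 312, 196 and 309.9 under JPX-0750, with no overlap. TTC28-AS1 had 47.6, 42.9 and 56.5 in DMSO, 475, 309 and 753 under JPX-0700, and 305, 209 and 303 under JPX-0750. Both are low in all 3 DMSO libraries and high in all 6 treated ones. The log2 fold changes were 4.003 ± 0.67 and 3.76 ± 0.67 (SE, adjusted p = 0.000795 and 0.00166 by limma) for NIFK-AS1, and 3.27 ± 0.57 and 2.44 ± 0.57 (adjusted p = 0.00116 and 0.0172 by limma) for TTC28-AS1. The JPX-0750 call of TTC28-AS1 did not hold without DMSO replicate 1 (adjusted p = 0.0577 by limma), DMSO replicate 2 (0.0736), JPX-0750 replicate 1 (0.131) or JPX-0750 replicate 2 (0.0591) or with total-sum scaling (0.0689), and NIFK-AS1 passed in every fit that left out 1 library.

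Of the intergenic members, LINC01021 passed the test with both compounds. Its DMSO mean was under 5, so it was kept only through its treated libraries. Its direction was thus fixed, and its values and calls are a description. It had 0, 11.5 and 3.23 normalised counts in DMSO, 69.1, 59.6 and 319.6 under JPX-0700, and 188, 164 and 446 under JPX-0750, with replicate 3 the highest in both treated groups. The log2 fold changes were 4.88 ± 1.10 (SE, adjusted p = 0.0113 by limma) and 6.003 ± 1.10 (adjusted p = 0.00221 by limma), and without DMSO replicate 1 they were 3.93 and 5.05, without DMSO replicate 2 they were 5.75 and 6.87, and without JPX-0700 replicate 3 the first was 4.12, all past the test. LINC00662 had 11.7, 11.1 and 10.2 in DMSO, 203, 149 and 1092 under JPX-0700, and 298, 146 and 28.3 under JPX-0750. The even DMSO values of LINC00662 stand beside a wide spread in the treated libraries, and JPX-0750 replicate 3 was near the DMSO level. It rose under JPX-0700 (4.75 ± 0.97 SE, adjusted p = 0.00499 by limma, and 3.87 without JPX-0700 replicate 3), and its JPX-0750 value was 3.18 ± 0.97 (adjusted p = 0.0808 by limma).

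Some members past the test had almost no reads with DMSO. They were kept only through their treated libraries, so their direction was fixed and their values and calls are a description. SLC7A11-AS1 and PRMT5-AS1 had 0 reads over the 3 DMSO libraries and passed the test under JPX-0750. SLC7A11-AS1 had 54.8, 72.8 and 74.97 normalised counts under JPX-0750, at least 129-fold higher than a floor of 3 reads over the DMSO group, and PRMT5-AS1 had 58.2, 27.3 and 83.3, at least 122-fold higher. With JPX-0700 both were at 0 in replicate 3, with 83.0 and 96.9 in the other libraries for SLC7A11-AS1 (adjusted p = 0.1499 by limma) and 50.7 and 18.6 for PRMT5-AS1 (adjusted p = 0.253 by limma). These JPX-0750 calls were close to the threshold (adjusted p = 0.0469 and 0.0498 by limma), and each was kept in 2 of the 9 fits that leave out 1 library. LINC00167, now named PRDM10-DT and divergent from PRDM10, had 1 read with DMSO and 87.6, 101 and 161 normalised counts under JPX-0700, a ratio of 687 (95% counting interval 121 to 27374). HIPK1-AS1, beside a protein kinase gene, had 2 reads with DMSO and 36.9, 37.3 and 108 under JPX-0700, a ratio of 188 (49.7 to 1591), or 103 (24.8 to 919) without JPX-0700 replicate 3. Both passed the test under JPX-0700, LINC00167 in 7 and HIPK1-AS1 in 1 of the 9 fits, and under JPX-0750 each had a replicate 3 at or near 0.

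Of the remaining called members, 4 rose with both compounds. CCDC18-AS1 had 0, 25.7 and 25.3 normalised counts in DMSO, 327, 261 and 506 under JPX-0700, and 209, 136 and 83.3 under JPX-0750. EPHA1-AS1 had 0, 3.07 and 13.5 in DMSO, 87.6, 127 and 519.7 under JPX-0700, and 164, 122.8 and 58.3 under JPX-0750. Both of these rose with both compounds, as did RALY-AS1 (4.80 ± 1.28 and 4.85 ± 1.28 SE, adjusted p = 0.0322 and 0.0393 by limma) and ZRANB2-AS2 (5.44 ± 1.28 and 5.94 ± 1.28 SE, adjusted p = 0.0150 and 0.00976 by limma). RALY-AS1 and ZRANB2-AS2 had a DMSO mean under 5, so their direction was fixed. ADPGK-AS1 and LACTB2-AS1 passed under JPX-0700 alone, as did CAPN10-AS1, INTS6-AS1, JMJD1C-AS1, MBNL1-AS1, LINC00324, LINC00909, LINC00910 and LINC01089, whose log2 fold changes ran from 3.02 for JMJD1C-AS1 to 5.72 for ADPGK-AS1. INTS6-AS1, beside a gene of the Integrator complex, had 8.08, 4.22 and 5.38 in DMSO, 69.1, 153 and 659 under JPX-0700, and 119.8, 122.8 and 16.7 under JPX-0750, above DMSO in all 6 treated libraries. In the 9 fits that each left out 1 library, 17 of the 28 JPX-0700 calls and 9 of the 17 JPX-0750 calls passed every time. Calls of CCDC18-AS1 and EPHA1-AS1 under JPX-0750, of RALY-AS1 and ZRANB2-AS2 under both compounds, and of ADPGK-AS1, LACTB2-AS1, CAPN10-AS1, JMJD1C-AS1, LINC00324, LINC00909 and LINC00910 under JPX-0700 were lost in at least 1 of them. Total-sum scaling also ended the calls of CCDC18-AS1 (adjusted p = 0.119 by limma) and EPHA1-AS1 (0.0554) under JPX-0750, of RALY-AS1 under both (0.0671 and 0.0767), of LACTB2-AS1 (0.0678), HIPK1-AS1 (0.0639), JMJD1C-AS1 (0.102), LINC00324 (0.0740) and LINC00909 (0.0733) under JPX-0700, and of SLC7A11-AS1 (0.0669) and PRMT5-AS1 (0.0656) under JPX-0750. TMM scaling ended those of CCDC18-AS1, RALY-AS1 (under JPX-0750), LACTB2-AS1, HIPK1-AS1, JMJD1C-AS1, SLC7A11-AS1 and PRMT5-AS1. Leaving out DMSO replicate 1 ended those of CCDC18-AS1 (adjusted p = 0.156 by limma), EPHA1-AS1 (0.0835), RALY-AS1 (0.133 and 0.158), ADPGK-AS1 (0.0626), LACTB2-AS1 (0.154), CAPN10-AS1 (0.074), JMJD1C-AS1 (0.139), LINC00909 (0.0977) and, under JPX-0700, ZRANB2-AS2 (0.0509). Leaving out DMSO replicate 2 ended those of LINC00324 (adjusted p = 0.123 by limma), LINC00910 (0.0533), LACTB2-AS1 (0.0998), JMJD1C-AS1 (0.0977), LINC00909 (0.0750), ADPGK-AS1 (0.0583), EPHA1-AS1 (0.0574) and, under JPX-0700, ZRANB2-AS2 (0.0542). Some of these calls were also lost without a treated library. CCDC18-AS1 under JPX-0750 passed in 2 of the 9 fits, and LACTB2-AS1, RALY-AS1 and JMJD1C-AS1 under JPX-0700 in 3. Of the 30 called members, 13 had 0 reads in DMSO replicate 1 and 11 had a DMSO mean under 5. Those 11 were kept only through their treated libraries, so their calls are a description.

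**Figure D3:**
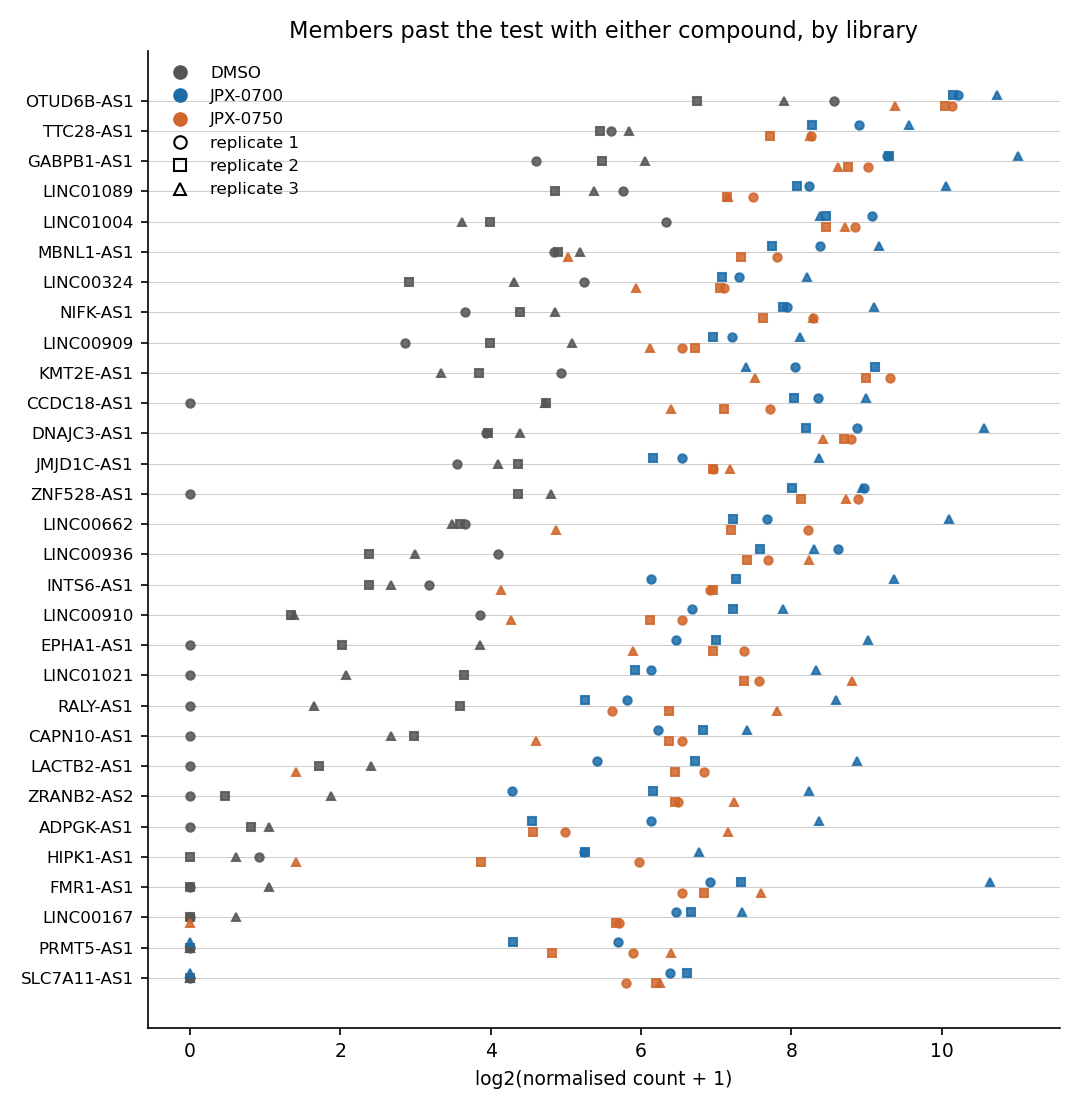
The 30 members that passed the test with either compound, ordered by DMSO mean, with log2(normalised count + 1) on the x axis, grey for DMSO, blue for JPX-0700, orange for JPX-0750, and a symbol for each replicate. From OTUD6B-AS1 at the top to SLC7A11-AS1 at the bottom the treated symbols lie to the right of the grey ones, with exceptions in replicate 3, such as JPX-0750 for LACTB2-AS1 and LINC00167.

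The mean over the 9 libraries includes the treated ones, so members can rank high for being high there, and counts among the top 10 are a description. Of the 10 members with the highest mean normalised counts, 5 rose with both compounds (OTUD6B-AS1, GABPB1-AS1, DNAJC3-AS1, LINC01004 and TTC28-AS1). Over all genes, 5.28% rose under JPX-0700 and 3.9% under JPX-0750. The other 5 passed in neither, of which 4 are described. LRRC75A-AS1, now known as the snoRNA host SNHG29, had 2019, 1523 and 1112 in DMSO, 1069, 2098 and 2043 under JPX-0700, and 1304, 1519 and 2181 under JPX-0750, and the groups overlapped. Its log2 fold changes of 0.14 ± 0.43 and 0.11 ± 0.43 (SE, adjusted p = 0.882 and 0.934 by limma) were under 0 when each library was scaled to the same total (-0.59 and -0.43) or by TMM (-0.16 and -0.15). LINC00599, a host of the microRNA miR-124, had 484, 201 and 210.0 in DMSO, 143, 529 and 1045 under JPX-0700, and 459, 418 and 317 under JPX-0750, also overlapping. OIP5-AS1, the RNA known as cyrano that binds miR-7, had 196, 128 and 157 in DMSO, 239.6, 376 and 725 under JPX-0700, and 318, 291 and 129.9 under JPX-0750. Its JPX-0700 libraries lay above its DMSO libraries, without passing the test (1.35 ± 0.58 SE, adjusted p = 0.206 by limma). FGD5-AS1 had 342, 219 and 298 in DMSO, 336, 671 and 13.9 under JPX-0700, and 510.1, 446 and 168 under JPX-0750, and its JPX-0700 value was -0.91 over all libraries and 0.75 without JPX-0700 replicate 3.

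A list of 16 members and candidates with a described role kept 11 under the rule for the mean level, of which GABPB1-AS1 rose with both compounds and LINC00662 under JPX-0700. The other 9 did not pass in either comparison. LINC00467 came nearest under JPX-0750, at 161, 122.8 and 227 normalised counts against 2.69, 28.4 and 30.7 with DMSO (3.46 ± 1.21 SE, adjusted p = 0.147 by limma). TMPO-AS1, opposite the gene of a lamina protein, had 44.0, 80.1 and 56.0 in DMSO, 101, 33.5 and 475 under JPX-0700, and 61.6, 13.6 and 167 under JPX-0750, a spread within the treated groups wider than any shift between groups.

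Few partners, the genes named before the suffix, passed the test beside their antisense member. Of the 295 antisense members, 258 had a partner among the genes tested, 252 distinct genes, of which 248 are typed as coding. With JPX-0700, 16 partners rose (6.35% of the 252, where 5.28% of all genes rose) and 5 fell, and under JPX-0750, 16 rose and 2 fell (3.9% of all genes rose). GAS5 and C5orf66, typed as noncoding, were among the 16 each time, so 14 coding partners rose. The median partner log2 fold change was 0.17 and 0.15, near that of all genes, and the member lay above its partner in 191 (74.0%) and 201 (77.9%) of the pairs. Members kept only through their treated libraries had to be high there, and over the 117 pairs with a member at a DMSO mean of at least 5 the counts were 73 (62.4%) and 76 (65.0%). Pearson's r across the pairs was 0.11 and 0.11, a description over genes measured in the same libraries, with many members at few reads. Among the 18 and 13 members that rose and had a tested partner, the partner rose in 3 under JPX-0700 (CCDC18, OTUD6B and ZRANB2) and in 2 under JPX-0750 (SLC7A11 and ZRANB2).

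DNAJC3 had 365, 218 and 302 normalised counts in DMSO, 627, 265 and 278 under JPX-0700, and 390.3, 291 and 381 under JPX-0750, so its groups overlapped while those of DNAJC3-AS1 did not. The log2 ratio of DNAJC3-AS1 to DNAJC3 was -4.08 ± 0.43 (SD, n = 3) in DMSO, 0.71 ± 1.52 under JPX-0700 and 0.17 ± 0.34 under JPX-0750. For GABPB1-AS1 over GABPB1 it was -0.12 ± 0.51, 5.43 ± 1.81 and 4.78 ± 1.09. OTUD6B-AS1 and OTUD6B, which start 7 bases apart, had overlapping ratios in the 3 groups, at 0.65 ± 0.52, 0.48 ± 0.24 and 0.91 ± 1.07. OTUD6B rose under JPX-0700 (2.80 ± 0.62 SE, adjusted p = 0.0105 by limma) and had 1.86 ± 0.62 under JPX-0750 (adjusted p = 0.127 by limma).

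SLC7A11 encodes the light chain of the cystine and glutamate exchanger and shares exonic sequence with SLC7A11-AS1 on the other strand. It had 6.29, 9.59 and 14.0 normalised counts in DMSO, 364, 391 and 789 under JPX-0700, and 253, 227 and 401 under JPX-0750. Both genes were low in DMSO, and SLC7A11 rose with both compounds (5.53 ± 0.67 and 4.77 ± 0.67 SE, adjusted p = 2.7e-05 and 0.000139 by limma). ZRANB2, which encodes a splicing factor, and ZRANB2-AS2 also both rose; the RNA starts 27 bases from ZRANB2 on the other strand and shares exonic sequence with NEGR1 further on. Over the 20 called antisense members with a tested partner, the log2 ratio of member to partner lay above all DMSO libraries in 15 under JPX-0700 and in 13 under JPX-0750, with median shifts of 4.05 and 3.22. These pairs were chosen because the member had passed the test, so the ratios are a description, and the exceptions under JPX-0700 were INTS6-AS1, JMJD1C-AS1, OTUD6B-AS1, PRMT5-AS1 and SLC7A11-AS1.

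**Figure D4:**
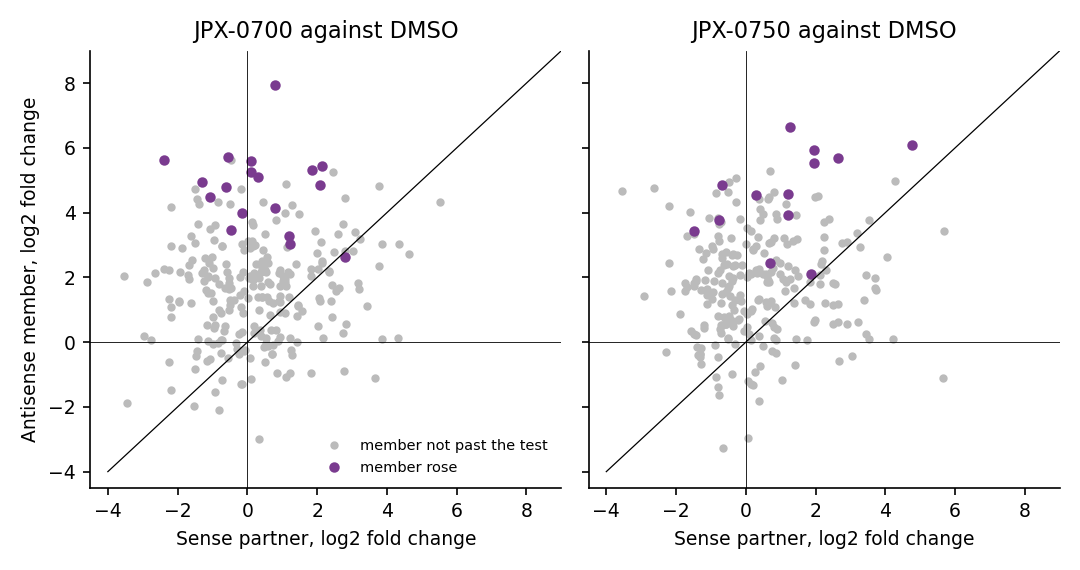
Log2 fold change of each antisense member (y) against that of its sense partner (x) for the 258 pairs tested, JPX-0700 left and JPX-0750 right, with purple points for members that rose and a diagonal line of equal change. The purple points lie above the line in 17 of 18 pairs under JPX-0700 and 13 of 13 under JPX-0750, over partner values from -2.38 to 2.80 under JPX-0700 and from -1.48 to 4.77 under JPX-0750.

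Of the 402 members, 390 were placed in GENCODE 29 (GRCh38), 345 by symbol and 45 through a RefSeq synonym. Of these, 289 overlapped a gene on the other strand, 54 did not but started within 1000 bases of a coding gene on the other strand, and 47 did neither. Over all placed members 175 started within 1000 bases of a coding gene on the other strand, and 18 of them (10.3%) rose under JPX-0700 and 13 (7.43%) under JPX-0750. Of the 215 without such a neighbour, 10 (4.65%) and 4 (1.86%) rose, where 5.28% and 3.9% of all genes tested rose, and the difference between the classes was not tested. The medians of these classes were closer, 1.84 and 1.94 for the head-to-head members and 1.76 and 1.65 for the rest. Members kept only through their treated libraries were not taken out of any class by position, so all these shares and medians are a description. Exonic overlap with a coding gene on the other strand held for 193 members, of which 13 (6.74%) and 9 (4.66%) rose, and for the 197 placed members without it 15 (7.61%) and 8 (4.06%) rose. Of 14 members with a small nucleolar or small nuclear RNA gene in their span, 1 rose under JPX-0700 and 0 under JPX-0750.

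The 11 members that RefSeq now lists as coding had lower values than the rest. They include LINC00116, which encodes the mitochondrial micropeptide mitoregulin (MTLN), LINC01420, which encodes NBDY, a microprotein of P-bodies, and LINC00493 and LINC00998, now SMIM26 and SMIM30. None of them passed the test with either compound, and their median log2 fold changes were -0.15 and -0.28, against 1.87 and 1.91 for the other 391, many of which were kept only through treated libraries. At a DMSO mean of at least 5 the medians were -0.69 and -0.40 for 10 of the 11, and 0.62 and 0.88 for 174 others. LINC01420 had 56.6, 51.0 and 44.7 normalised counts in DMSO, 32.3, 14.9 and 2.78 under JPX-0700, and 37.7, 31.8 and 29.99 under JPX-0750, below all DMSO libraries in both groups. Its log2 fold changes of -2.03 ± 1.15 and -0.60 ± 1.15 (SE, adjusted p = 0.345 and 0.857 by limma) did not pass. LINC00116 had 54.8, 104 and 22.6 in DMSO, 23.0, 22.4 and 178 under JPX-0700, and 68.5, 45.5 and 137 under JPX-0750, and the groups overlapped. The difference between the coding and the other members is a description and was not tested.

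Between the compounds no member differed by limma. Of 402 members, 0 were higher and 0 lower under JPX-0750 than under JPX-0700, where 0 of all genes passed, and the lowest adjusted p of a member was 0.848. At an unadjusted p under 0.05 there were 17 members (4.23%) and 395 of all genes (3.21%), 14 members lay above all JPX-0700 libraries (3.48%, where 4.72% of all genes did) and 18 below them (4.48%, where 3.63% did), and the voom fit on recovered reads also called 0. The median difference of JPX-0750 minus JPX-0700 was 0.09 over the members and 0.10 over all genes. Of the 30 members called against DMSO, 28 were called under JPX-0700 and 17 under JPX-0750, a choice that favours a lower level under JPX-0750. Of the 30, 22 had a lower and 8 a higher fitted level under JPX-0750, from -3.03 for LINC00167 to 2.37 for PRMT5-AS1. The 95% intervals of these differences had a median width of 4.32 on the log2 scale, so only large differences between the compounds could have been seen. LINC01089 at -1.53 (95% interval -2.93 to -0.12) and MBNL1-AS1 at -1.71 (-3.36 to -0.06), both named after their values were seen, had intervals below 0 and adjusted p of at least 0.848 by limma.

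Of the 30, 8 had all JPX-0750 libraries below all JPX-0700 libraries, where 3.63% of all genes did, and 0 had them above, where 4.72% did. The 8 were GABPB1-AS1, TTC28-AS1, OTUD6B-AS1, CCDC18-AS1, LINC00167, LINC00909, LINC00910 and LINC01089. The choice of the 30 by their calls favours a lower level under JPX-0750, so these counts are a description. GABPB1-AS1 had 392 to 517 against 618 to 2070.3 normalised counts and a difference of -1.07 (95% interval -2.32 to 0.19, adjusted p = 0.848 by limma). TTC28-AS1 differed by -0.84 (-2.03 to 0.36) and OTUD6B-AS1 by -0.51 (-1.56 to 0.54). KMT2E-AS1 differed by 0.42 (-1.12 to 1.97), LINC01004 by 0.03 (-1.43 to 1.4996) and NIFK-AS1 by -0.24 (-1.65 to 1.16). These 6 intervals include 0, and none shows that the compounds act alike. The structural difference between the compounds is not given in the labels.

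**Figure D5:**
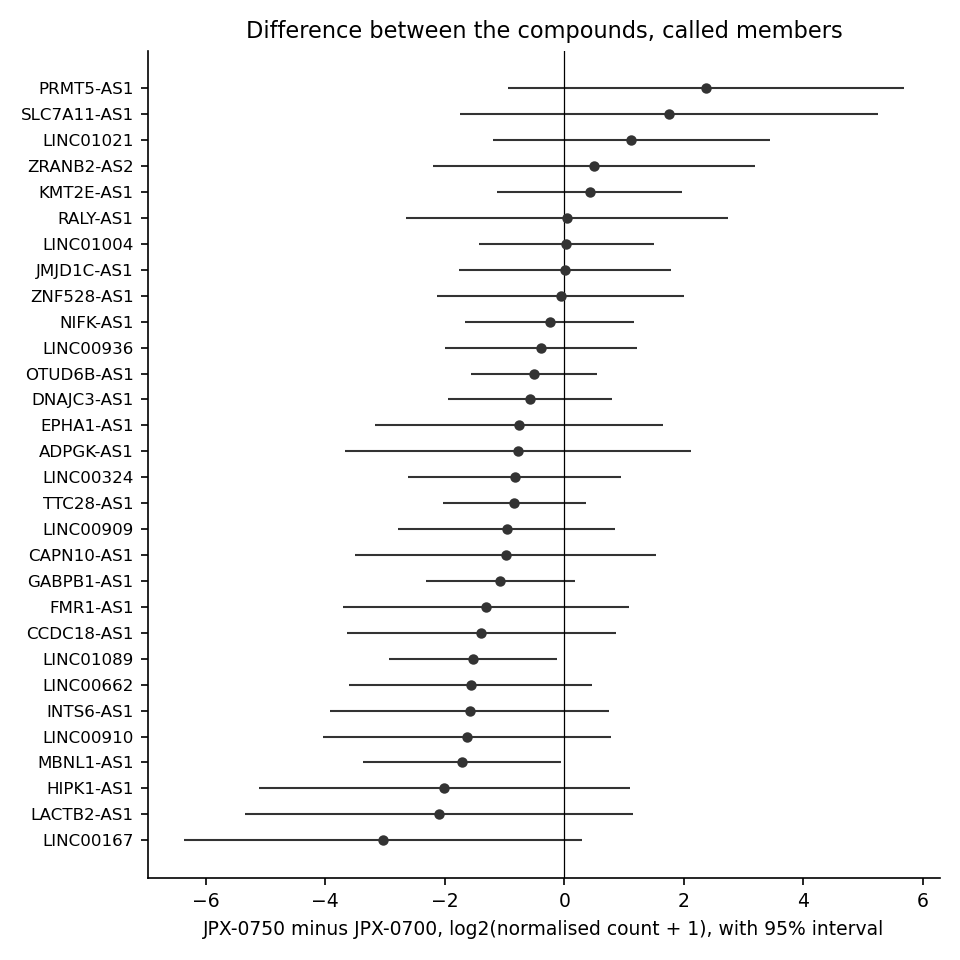
Fitted difference of JPX-0750 minus JPX-0700 in log2(normalised count + 1), with its 95% interval, for the 30 members called against DMSO with either compound. The intervals of LINC01089 (-1.53) and MBNL1-AS1 (-1.71) lie below 0 and the others cross it, with extremes of -3.03 for LINC00167 and 2.37 for PRMT5-AS1, and the adjusted p of every member was at least 0.848.

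Long noncoding RNAs outside the naming rule gave a comparison in the same libraries. From a list of 30, 26 were tested, and 9 rose and 0 fell with each compound, where 21 (16.3%) and 17 (13.2%) of the 129 other long noncoding RNA genes and 5.28% and 3.9% of all genes rose. The 9 were MALAT1 and NEAT1, the RNAs of nuclear speckles and paraspeckles, KCNQ1OT1, the antisense RNA of an imprinted domain, GAS5, SNHG5 and SNHG12, which host small nucleolar RNAs, PVT1, LINC-PINT and TERC, the RNA of telomerase. LINC-PINT had a DMSO mean of 2.23 and was kept only through its treated libraries, so its direction was fixed. Neither the 26 nor the 129 genes were limited by their DMSO mean. KCNQ1OT1 had 70.9, 34.1 and 60.8 normalised counts in DMSO, 2678, 1819 and 2473 under JPX-0700, and 2427, 1628 and 1551 under JPX-0750. NEAT1 had 493, 427 and 257 with DMSO and at least 7231 in every treated library. NORAD, a cytoplasmic RNA, had 342, 291 and 266 in DMSO, 221, 153 and 13.9 under JPX-0700, and 199, 173 and 159.9 under JPX-0750, below DMSO in all 6 treated libraries and not past the test (adjusted p = 0.197 and 0.714 by limma).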

How the data were processed

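RNA of 9 MV4-11 libraries, 3 per group, had been read from the 3′ end. The authors deposited normalised counts, decimal values per gene. The submitters' processing notes list STAR 2.4.2a, featureCounts 2.0.3, SAMtools 1.4, DESeq2 (no version), FastQC 0.11.9 and the build GRCh38, without saying what each was used for. The sources used here give neither annotation nor strand setting. Each deposited value was a whole multiple of what 1 read is worth in its library, so reads were recovered for 100% of values (tolerance 1e-06).

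Genes with a mean of at least 5 were tested with limma 3.58.1 in R 4.3.3 on log2(normalised count + 1), with all 9 libraries in 1 fit and Benjamini-Hochberg adjustment over the 12301 genes, and a gene was called at an adjusted p under 0.05. The fit was checked on simulated data. The planned edgeR and DESeq2 tests for counts were not run. A voom fit on the recovered reads was added as an alternative after seeing the data. Members and gene lists were chosen with earlier results of these data known. Named were the 10 called members with the largest rise in each comparison with DMSO, the 10 members with the highest mean, the coding partners of both, and a list with described roles; other named members are said to be so or were added to complete the list of calls. Between libraries of the same replicate number, deviations from the group means correlated at -0.14 to -0.04 for DMSO with a compound. For JPX-0700 with JPX-0750 they correlated at 0.13, 0.17 and 0.19. Libraries of different numbers were not compared and no label pairs them, so these values cannot show whether the numbers pair libraries. Counting intervals are exact, at 95%, and cover counting error only, since no molecular identifiers are named. Alternatives were other pseudocounts, filters, scalings and fits. A highly expressed member and a marker gene are not reported here.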

Additional observations from a re-analysis of the deposited data

How the results depend on the processing

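In every alternative 0 members fell under either compound and 0 differed between the compounds. The 28 and 17 members that rose under JPX-0700 and JPX-0750 numbered 22 and 10 with total-sum scaling (3.07% and 2.47% of all genes rose), 14 and 38 with only the 2 groups compared (2.92% and 5.90%), 73 and 51 with voom on recovered reads (9.95% and 7.48%), and 180 and 176 without the library with the fewest genes in each group (17.5% and 17.8%). The last 2 settings were chosen after seeing the data. All these counts include members kept only through their treated libraries. Leaving out 1 library at a time gave 19 to 43 and 9 to 55. With the replicate number as a block, 26 and 17 members rose, and between the compounds the count stayed at 0. The edgeR and DESeq2 alternatives were not run. The cause of these differences was not tested.

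Reversals of sign were found among members that did not pass the test. With total-sum scaling the values were -0.59 and -0.43 for LRRC75A-AS1, -0.0796 and -0.0151 for LINC00599, and -0.13 for LINC01138 under JPX-0700, and under JPX-0750 they were -0.28 for FGD5-AS1, -0.00175 for OIP5-AS1, -0.42 for MCM3AP-AS1 and -0.11 for LINC00339. With TMM scaling they were -0.16 and -0.15 for LRRC75A-AS1, and under JPX-0750 -0.00368 for FGD5-AS1 and -0.19 for MCM3AP-AS1, which also had -0.19 at a pseudocount of 0.5. Without the libraries with the fewest genes FGD5-AS1 had 0.89 and TMPO-AS1 -0.19 under JPX-0700, and with voom TMPO-AS1 had 0.20 under JPX-0750. With 1 library left out, LRRC75A-AS1 ranged from -0.0781 to 0.46 and from -0.11 to 0.32 under the respective compounds, FGD5-AS1 from -2.00 to 0.75 and from -0.0398 to 0.76, and LINC01138 from -0.96 to 1.49 and from -1.53 to 0.64. Under JPX-0750 the range was -0.97 to 0.79 for TMPO-AS1, -0.80 to 1.70 for MCM3AP-AS1 and -0.0719 to 0.87 for LINC00339. Of the 402 members, 43 had 0 reads over the DMSO libraries, which were the deepest, and 7 over each treated group. The filter on the mean favours this, since 1 read was worth more normalised counts in a treated library. Few treated reads could thus keep a member without DMSO reads, and these counts are a description.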
